A study of Mus musculus with 36 samples.

Results

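Megakaryocyte-erythroid progenitors (MEP) without the splicing factor Zrsr2 were compared with MEP of wild-type mice by RNA-seq. The libraries were taken by their titles, which name a genotype, a replicate number and MEP, and they are 6 of the 36 libraries of the series. The KO group holds 3 MEP libraries of Zrsr2-deficient mice, and the WT group holds 3 MEP libraries of their wild-type littermates. All of these mice were males on a C57BL/6 background. RNA was selected by its poly(A) tail, so what is reported is mostly processed RNA with those introns that stayed in it. No source used here gives the ages of the mice, the design of the Zrsr2 allele or the gates of the cell sort. KO and WT libraries of common myeloid progenitors (CMP) and of granulocyte-monocyte progenitors (GMP), 3 a group and numbered like the MEP libraries, serve here as the nearest cell types.

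Most introns are removed by the major spliceosome. A small class, called U12-type, has other sequences at the 5′ splice site and at the branch point, the base near the 3′ end to which the intron start is joined, and is removed by the minor spliceosome. Zrsr2 is a zinc finger protein on the X chromosome that helps the minor spliceosome to recognise the 3′ splice site, and in humans its gene is mutated in myelodysplastic syndromes. MEP give rise to red cells and platelets.

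The sequences below show what sets the U12-type introns apart from other introns. They are given 5′ to 3′ on the strand of the transcript, from the GENCODE M21 transcript sequences, where the exon of another transcript runs through the intron. Capitals mark the 8 bases of the 5′ splice site, the best branch point match and the last 2 bases. The first 3 are whole introns that held more reads in every KO than in every WT library. Arl16 begins with AT and ends with AC, and the other 2 begin with GT and end with AG.
Cgrrf1 intron 3: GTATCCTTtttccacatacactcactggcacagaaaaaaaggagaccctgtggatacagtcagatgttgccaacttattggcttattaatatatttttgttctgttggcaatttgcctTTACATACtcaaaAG
Arl16 intron 1: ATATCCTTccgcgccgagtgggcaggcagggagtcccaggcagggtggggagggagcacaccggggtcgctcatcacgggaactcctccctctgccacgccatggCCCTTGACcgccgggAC
Vps16 intron 13: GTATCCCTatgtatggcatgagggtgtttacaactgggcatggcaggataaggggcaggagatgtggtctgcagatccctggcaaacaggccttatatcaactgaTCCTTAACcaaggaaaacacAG
For the next 3 introns only the 5′ end was readable, and their first 20 bases are shown because the results on retention turn on these introns as well.
Mcts1 intron 4: GTATCCTTcccagggtttaa
Taf2 intron 12: GTATCCTTttcagtagcagt
Psma1 intron 5: GTATCCTTtatgttggcatt

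An intron was classed as U12-type where its first 8 bases were ATATCCTT or GTATCCTT with at most 1 mismatch. Its last 40 bases also had to hold TTCCTTAA, TCCTTAAC, TTCCTTAC or TTCCTTGA with at most 2 mismatches, and to end in AG or AC. All were read on the transcript strand only. These 4 branch point motifs overlap each other by most of their letters. The exact 5′ site was found in 133 of the 23054 introns whose start was readable (0.577%). A branch point match was far less selective and was found in 5681 of the 10361 introns with both ends readable (54.8%). The whole rule, with its mismatches allowed, gave 78 U12-type introns (0.753% of the 10361), against 10283 other classed introns. The other introns of the 219945 listed could not be classed.

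The 6 MEP libraries held 59770172 to 67149743 spliced counts, which are reads across an exon-exon junction, and 2804420 to 3500796 exon-intron counts, which are reads across either end of an intron. Exon-intron reads made up 4.84%, 4.48% and 4.66% of both kinds in KO1, KO2 and KO3, against 5.07%, 4.61% and 4.15% in WT1, WT2 and WT3, so the groups overlapped in their overall level of unspliced reads. Of 10 MEP markers, 6 were higher in WT MEP than in WT CMP (edgeR quasi-likelihood test, adjusted p under 0.05), among them the erythroid transcription factor genes Gata1 and Klf1 and the erythropoietin receptor gene Epor. The megakaryocyte genes Itga2b, Vwf and Pf4 and the early factor gene Gata2 were the 4 lower ones, so the libraries carry the erythroid side of their label more than the megakaryocytic side. Of 8 GMP markers 7 were lower than in CMP and 8 lower than in GMP, and the 4 measured markers of CMP or earlier cells were lower than in both. None of these 22 markers passed the test between KO and WT MEP. In such bulk libraries fewer cells of a type and less RNA per cell cannot be told apart.

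Zrsr2 itself (chrX:163935443-163958661, mm10) had 5, 4 and 1 spliced counts in the KO libraries, against 1648, 1857 and 1767 in the WT libraries. All 6 libraries thus fit their labels. Its log2 change was -8.96 (SE 0.45, edgeR adjusted p = 2.43e-08), and 3 of its 9 listed introns had any read in KO MEP. Of the 15 measured protein genes of the minor spliceosome, 8 were higher and 7 lower in KO, with a median log2 change of 0.004 beside -0.01 over all 17563 genes tested, and Zrsr2 was the only member called. Ccdc84, whose human counterpart CENATAC acts in splicing of U12-type introns, stood at 35.7, 33.2 and 13.5 CPM (counts scaled to a library total of 1e6 spliced counts) in KO1, KO2 and KO3, against 15.2, 13.7 and 12.1 CPM in WT. Its KO3 library lay within the WT range, and it was not called (log2 change 0.98, SE 0.25, adjusted p = 0.404). Snrnp35, a protein of the U11/U12 particle that binds the 5′ splice site, had a log2 change of -0.45 with overlapping groups, at 5.46, 4.62 and 3.80 CPM against 4.09, 6.25 and 8.17 CPM. Rbm48, a minor spliceosome protein gene, had a log2 change of 0.22. Of the 13 measured genes of the U2AF family and of splicing factors mutated in myelodysplasia, U2af2 and Sf1, which recognise the major 3′ splice site and branch point, had changes of -0.09 and -0.08, and only Zrsr2 was called.

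The retention of U12-type introns was higher in KO MEP as a class. Retention is given as a percent, the mean of the reads at both ends of an intron over that mean plus its spliced reads. Of the 78 U12-type introns 68 had enough reads for the test, and the other 10 had few or no reads in MEP. Over these 68 introns the mean retention was 11.97%, 12.2% and 10.7% in KO1, KO2 and KO3, against 10.4%, 8.95% and 8.75% in WT1, WT2 and WT3, and every KO library lay above every WT library. Over the 7155 other classed introns tested it was 11.7%, 11.1% and 11.04% in KO, against 12.2%, 11.4% and 10.01% in WT, with full overlap. The change of the ratio of exon-intron to spliced reads was positive for 49 of the 68 and negative for 19, with a median log2 change of 0.29. For the other classed introns the median was 0.005, with 3625 of 7155 positive, and for all 62446 tested introns it was 0.02.

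Single U12-type introns carried this shift to very different degrees. Retention in every KO library exceeded that in every WT library for 17 of the 68 (25%), where 4.5% of all tested introns did so, and it lay below every WT library for 0 of the 68, where 4.07% of all did so. At an unadjusted p under 0.05, 14 were higher and 1 was lower in KO, against 2.11% and 1.94% of all tested introns. After adjustment over all introns 1 of the 68 was called, where 0.0048% of all tested introns were called higher. For every 100 spliced reads of the class there were 4.3997, 3.74 and 4.66 reads at the 5′ ends in KO, against 3.40, 3.38 and 3.08 in WT. At the 3′ ends there were 5.49, 5.24 and 5.39 in KO, against 4.63, 4.73 and 3.98 in WT. At both ends every KO library thus lay above every WT library, while for the other classed introns the groups overlapped, at 3.83 to 4.19 reads at the 5′ ends in KO and 3.61 to 4.44 in WT. The median share of an intron covered by reads was 1 in every library of both groups, and for the other classed introns too. It thus does not show where in the introns the additional reads of KO lay. The mean share of the class was 0.858 to 0.886 in KO and 0.835 to 0.869 in WT, with overlap.

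**Figure D1:**
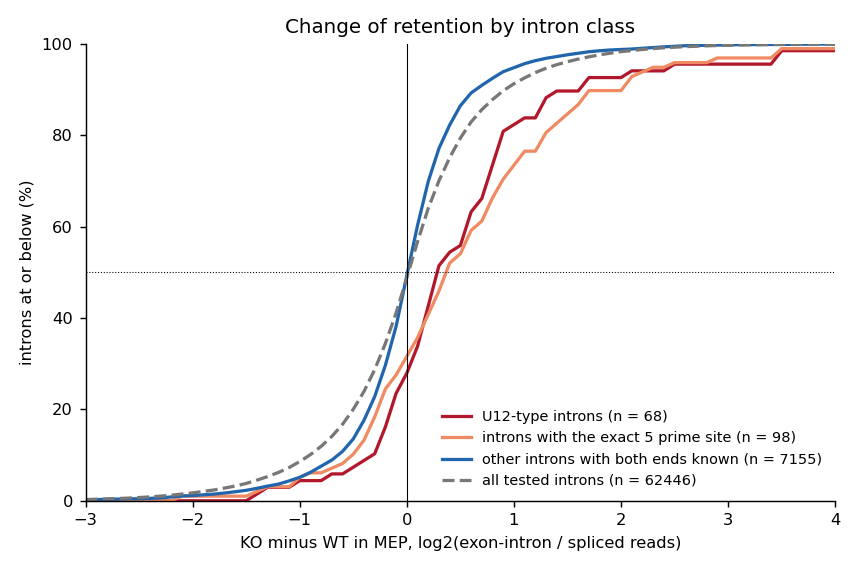
Share of introns (vertical axis, percent) at or below a given KO minus WT change of the log2 ratio of exon-intron to spliced reads in MEP (horizontal axis), by intron class. The curve of the 68 U12-type introns lies to the right of that of the 7155 other classed introns, with medians of 0.29 and 0.005.

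The median change was above 0 in subgroups of the class by first bases and by length, and differences between subgroups were not tested. The 19 introns that begin with AT had a median log2 change of 0.36 with 14 higher, and the 49 that begin with GT or GC had 0.26 with 35 higher. Introns of up to 500 bases and longer ones had the same median, 0.29, over 29 and 39 introns. The 42 introns with the exact 5′ site had a median of 0.57 with 31 higher. The 500 other tested introns of the same genes had a median of 0.02, with 262 higher and 238 lower. The median of the class was 0.42 in CMP and 0.35 in GMP. Across the 68 introns the change in MEP had a Spearman correlation of 0.096 with that in CMP and of 0.39 with that in GMP. This is given as a description, since libraries of 1 genotype and number may share their animal and many introns had few reads.

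Among single introns, 3 were called higher in KO MEP and 0 lower (edgeR, adjusted p under 0.05), and 5 were called with the replicate block, which added a pair of overlapping introns of the kinesin gene Kif17, both lower. These are alternative introns with the same 3′ end (position 138289240 of chromosome 4), so they share exon-intron reads and are not separate findings. The strongest was intron 3 of the 17 of Pola2 (chr19:5958876-5959032, minus strand, 157 bases, between coding exons). Pola2 encodes the accessory subunit of DNA polymerase alpha, the enzyme that starts DNA synthesis. The intron was crossed at its ends by 165, 164 and 189 reads in KO, against 6, 38 and 20 in WT, beside 690 to 923 spliced reads in KO and 822 to 1027 in WT. Its retention was 8.20%, 10.6% and 9.54% in KO, against 0.364%, 2.17% and 0.964% in WT. The groups were widely apart, and the log2 ratio rose by 3.44 (limma SE 0.57, edgeR adjusted p = 2.65e-05). For every intron the log2 change and SE are from limma on the log2 ratios, and p is from edgeR on the counts. An SE and a p given together thus come from different fits. The other 16 tested introns of Pola2 had a median change of 0.05, between -0.43 and 1.60, and none was called. Reads were spread over both ends of intron 3, with 66 to 71 at the 5′ end and 94 to 123 at the 3′ end in KO, against 3 to 18 and 3 to 20 in WT, and all of its bases were covered in all 6 libraries. Its retention was 13.5 ± 6.57% in KO and 3.04 ± 0.839% in WT CMP, and 18.8 ± 1.56% and 2.07 ± 0.631% in GMP (SD, n = 3 each). The intron was called in both of these cell types too (adjusted p = 0.00745 and 3.70e-06).

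Intron 4 of the 5 of Mcts1 (chrX:38606073-38611765, plus strand, 5693 bases) was the second called intron. Mcts1 encodes a factor that acts with Denr in reinitiation of translation. Its retention was 31.3%, 23.5% and 28.9% in KO, against 12.5%, 14.2% and 8.42% in WT, so the groups did not overlap. The log2 ratio rose by 1.57 (SE 0.34, adjusted p = 0.00296), and the spliced reads of the intron were 532, 617 and 585 in KO, against 982, 778 and 903 in WT. The 3 other tested introns of Mcts1 changed by -1.05 to 0.88, and none was called. In GMP the intron was also called, at 33.7 ± 5.47% in KO and 16.5 ± 1.47% in WT (SD, n = 3 each, adjusted p = 0.0205), and in CMP its change was 1.18 (adjusted p = 0.0895). It has the exact 5′ site, but its 3′ end was not readable, so it is not among the 68. The call did not hold without KO1 (adjusted p = 0.0672), KO3 (0.0554) or WT3 (0.104).

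Intron 6 of the 9 of Psma1 (chr7:114269851-114270332, minus strand, 482 bases) had no readable end and could not be classed. Psma1 encodes an alpha subunit of the proteasome core. Its retention was 1.33%, 1.41% and 1.49% in KO, against 0.410%, 0.415% and 0.372% in WT, from 90, 97 and 110 exon-intron reads against 26, 29 and 27. The values lay close together within each group, and the log2 ratio rose by 1.82 (SE 0.36, adjusted p = 0.0114). The call did not hold in any of the 6 fits that leave out 1 library (adjusted p 0.0611 to 0.129). The intron before it, intron 5 (chr7:114270404-114271053, 650 bases), has the exact 5′ site shown above. It was retained at 1.37%, 1.15% and 1.801% in KO, against 0.656%, 0.841% and 0.686% in WT, with a log2 change of 0.97 that was not called (unadjusted p = 0.0134, adjusted p = 1.0). None of the other tested introns of Psma1 had an unadjusted p under 0.05.

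**Figure D2:**
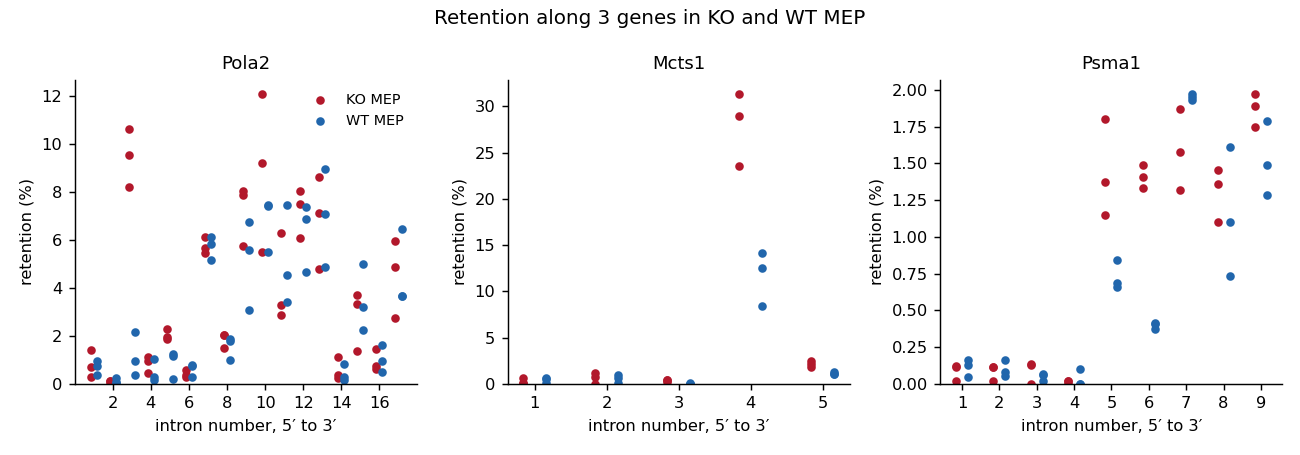
Retention (vertical axis, percent) of each intron along Pola2, Mcts1 and Psma1 by intron number (horizontal axis) in KO and WT MEP, introns of alternative transcripts left out. Points are libraries, 3 a group, and the percents given here are group means. KO and WT part at intron 3 of Pola2 (9.46% against 1.17%), at intron 4 of Mcts1 (27.9% against 11.7%) and at introns 5 and 6 of Psma1. The 3 KO libraries also lay above the 3 WT libraries at intron 5 of Pola2 (2.04% against 0.862%), intron 5 of Mcts1 (2.13% against 1.16%) and intron 3 of Mcts1, which had too few reads for the test, and below them at intron 7 of Psma1 (1.59% against 1.95%), none of them called.

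Other U12-type introns had separate groups without passing the test over all introns. Intron 3 of the 5 of Cgrrf1, a RING finger gene (chr14:46846052-46846184, 133 bases), was retained at 13.6%, 14.5% and 6.07% in KO, against 1.08%, 0.426% and 1.48% in WT. It rested on 27, 17 and 15 exon-intron reads against 3, 1 and 3 (log2 change 3.45, SE 0.51, adjusted p = 0.116). Intron 1 of Arl16, a small GTPase gene (chr11:120467241-120467362, 122 bases), was retained at 16.9%, 23.3% and 19.8% in KO, against 3.12%, 5.39% and 4.42% in WT (log2 change 2.43, SE 0.63, adjusted p = 0.594). For both introns the KO values in CMP and GMP were also above those in WT on average, at 14.4% and 15.2% for Cgrrf1 against 4.10% and 2.51%, and at 15.4% and 19.99% for Arl16 against 5.25% and 5.99%. Intron 13 of the 23 of Vps16, a subunit gene of the HOPS and CORVET complexes of endosome and lysosome fusion (chr2:130440580-130440706, 127 bases), had 23.3%, 21.7% and 22.2% in KO, against 15.4%, 13.9% and 11.3% in WT. Its spread was small beside that difference, yet its change of 0.90 (SE 0.35) had an adjusted p of 0.653.

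Introns of Inpp5b, Mapk8 and Smox had mean differences of the other sign in CMP and GMP, and none of these differences between cell types was called. Intron 2 of the inositol phosphatase gene Inpp5b (chr4:124742591-124742935, 345 bases) was retained at 14.6%, 3.70% and 16.5% in KO MEP, against 0%, 0% and 0.826% in WT MEP. Its reads were few, 14, 2 and 15 against 0, 0 and 1, and 30 of the 31 in KO lay at the 3′ end. A count of 3 exon-intron reads would have given 1.11% and 2.75% in the WT libraries at 0, a limit that covers counting error only. In CMP it was 5.10% in KO and 9.16% in WT on average, and in GMP 3.80% and 5.23%. The difference of its KO effect between MEP and CMP had an adjusted p of 0.489. Intron 4 of Smox, the spermine oxidase gene, was the 1 intron of the class lower in KO at an unadjusted p under 0.05, at 25.8%, 21.2% and 19.7% in KO, against 59.7%, 42.2% and 24.7% in WT. In CMP it was 44.7% in KO and 38.9% in WT on average, and in GMP 39.9% and 33.6%. Its branch point match ends 2 bases before the intron end, closer than in the other introns named here.

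Further members of the class that were higher in KO lay in genes of varied function. They include intron 5 of Tcp1, a subunit of the chaperonin that folds actin and tubulin, at 1.78%, 2.17% and 1.84% against 0.974%, 1.70% and 0.744%. Intron 18 of Lztr1, an adaptor for the ubiquitination of RAS proteins, had 10.03%, 14.96% and 8.53% in KO, against 6.44%, 6.76% and 6.77% in WT. Both had groups that did not overlap. Pcyt2 intron 8, in a gene of phosphatidylethanolamine synthesis, was the most retained of the named U12-type introns, at 50.5%, 47.1% and 57.0% in KO, against 48.4%, 36.0% and 39.1% in WT, and its groups overlapped. Intron 7 of the stress kinase gene Mapk8 had 27.9%, 36.8% and 39.4% in KO, against 31.3%, 13.5% and 10.9% in WT, also with overlap. In CMP it had 35.5% in KO and 38.5% in WT on average, and in GMP 29.1% and 29.4%.

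The exact 5′ site alone, whatever the 3′ end, was held by 98 tested introns, of which 67 were higher in KO with a median log2 change of 0.35. In 24 of them (24.5%) every KO library lay above every WT library, and in 1 (1.02%) below. Of all tested introns 4.5% and 4.07% did so. The 98 include the 42 U12-type introns with the exact 5′ site, 12 of them among the 24, so they are not a separate set. Alternative introns with a shared 5′ end, such as those of Fam92a, count separately. The called introns of Pola2 and Mcts1 are 2 of the 98. Intron 12 of Taf2, a subunit gene of the general transcription factor TFIID (chr15:55048742-55049394, 653 bases), was chosen for mention after its values were seen. It was retained at 24.2%, 14.2% and 22.2% in KO, against 6.67%, 9.27% and 6.604% in WT (log2 change 1.61, SE 0.43, adjusted p = 0.268), and it was called in CMP (adjusted p = 0.00492). Intron 10 of the palmitoyltransferase gene Zdhhc17, chosen likewise, had 14.8%, 16.02% and 13.2% in KO, against 3.70%, 2.04% and 7.17% in WT.

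**Figure D3:**
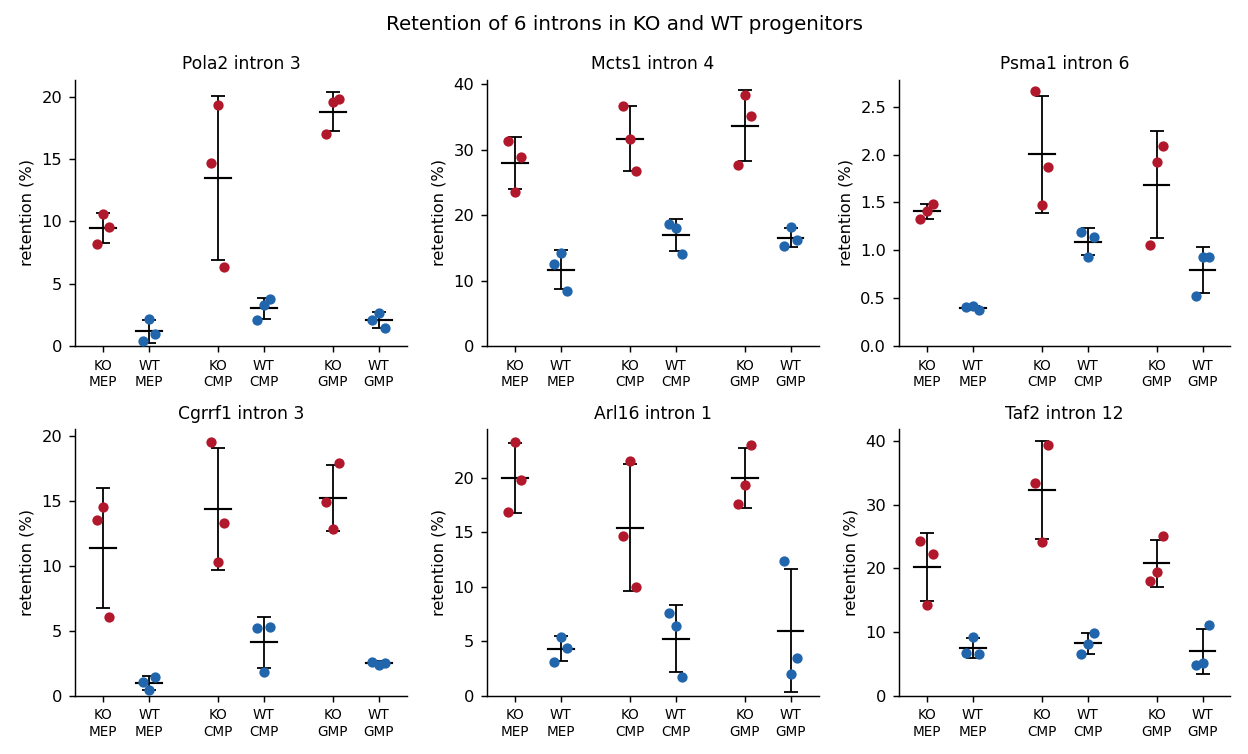
Retention (vertical axis, percent) of 6 introns in each KO and WT library of MEP, CMP and GMP (horizontal axis). Points are libraries, and the bar and its whiskers give the mean and SD of 3. The MEP points of Pola2 intron 3 lie between 8.20% and 10.6% in KO, above those in WT between 0.364% and 2.17%.

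The genes that carry U12-type introns were split evenly in the direction of their spliced counts. Of the 65 host genes 31 were higher and 34 lower in KO MEP, with a median log2 change of -0.004, and 0 were called by edgeR. At an unadjusted p under 0.05 there were 5 of them, where 4.41% of all tested genes passed that level. These 5 were Tmem87b at 0.38, the mismatch repair gene Msh3 at 0.22, Grk3, which encodes a kinase of G protein-coupled receptors, at 0.35, the iron-sulfur assembly gene Ciao2b at -0.22, and Spc24, a kinetochore gene, at -0.42. Pola2 stood at 257, 248 and 264 CPM in KO, against 258, 248 and 270 CPM in WT, with full overlap. Mcts1 stood at 50.4, 49.8 and 45.9 CPM in KO, against 67.5, 53.5 and 60.4 CPM in WT. These do not overlap, but the log2 change of -0.34 (SE 0.12) had an adjusted p of 0.826. A read is counted at each intron it spans, so the spliced counts of a gene include those of its retained intron.

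Among all genes, 6 were called higher in KO MEP (0.0342% of the 17563 tested) and 2 lower (0.0114%) by edgeR's quasi-likelihood test. Every KO library exceeded every WT library for 690 genes (3.93%) and lay below every WT library for 451 (2.57%). With the replicate block within each cell type 7 genes were called, 4 of them shared with these 8. In the 6 MEP libraries alone, with the block and without it, Zrsr2 was the 1 gene called, and the blocked values below are within cell types unless they name the 6 libraries. Sec14l1 and Spag1 had changes of the same sign and of similar size in CMP and GMP. Sec14l1, which encodes a phospholipid-binding protein of the SEC14 family (chr11:117115168-117159268), had 17.5, 19.3 and 17.5 CPM in KO, against 32.2, 28.1 and 33.9 CPM in WT. The groups were clearly apart, the log2 change was -0.82 (SE 0.10, adjusted p = 0.00343, and 0.0629 with the block), and that in CMP and GMP was -0.80 and -0.79. Spag1, which encodes a factor for the assembly of axonemal dynein (chr15:36178099-36235621), had 8.38, 9.03 and 7.31 CPM in KO, against 3.48, 3.28 and 3.45 CPM in WT. It rose by 1.25 (SE 0.20, adjusted p = 0.0282, and 0.0629 with the block), and by 1.23 and 1.62 in CMP and GMP, and it was called without KO3 but not without any other 1 library (adjusted p 0.0512 to 0.101).

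The 5 other genes called higher had few reads in WT MEP and were far more active in CMP. Syne2, which encodes the nuclear envelope protein nesprin-2 (chr12:75818134-76110926), had 3.46, 2.61 and 1.95 CPM in KO MEP, against 0.168, 0.182 and 0.152 CPM in WT MEP. Every KO value was far above every WT value, and the log2 change was 3.95 (SE 0.30, adjusted p = 5.71e-06). It stayed called with the block within cell types (5.08e-05) and not with the block in the 6 MEP libraries (0.528). Reads fell on 60 of its 114 listed introns in KO and on 15 in WT, with at most 16 on 1 intron of a library. In CMP it stood at 14.1 ± 2.002 CPM in KO and 13.5 ± 1.8001 CPM in WT, and in GMP at 7.95 ± 1.85 and 7.68 ± 2.21 CPM (SD, n = 3 each). The level in KO MEP was thus below that of either cell type, and in WT mice its log2 change for MEP against CMP was -6.18.

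Rdh12, which encodes a retinol dehydrogenase and lies on the same chromosome (chr12:79208914-79222665), had 0.416, 0.602 and 0.700 CPM in KO, against 0.0762, 0.122 and 0.0456 CPM in WT (log2 change 2.76, SE 0.32, adjusted p = 0.00148). F10, the gene of coagulation factor X (chr8:13037308-13056676), had 0.848, 1.09 and 0.417 CPM in KO, against 0.168, 0.0456 and 0.0607 CPM in WT (3.05, SE 0.40, adjusted p = 0.00432). Both stayed called with the block within cell types (0.0384 and 0.0273) and neither with the block in the 6 MEP libraries (0.999 each). The groups did not overlap for either gene, and the counts behind them were 26 to 65 a library in KO and 3 to 11 in WT. Irf5, a transcription factor of innate immunity (chr6:29526625-29541871), had 0.688, 1.86 and 0.834 CPM in KO, against 0.351, 0.106 and 0.289 CPM in WT. It rose by 2.15 (SE 0.36, adjusted p = 0.0477, and 0.294 with the block), and it was not called without KO2 (0.0700), WT2 (0.122) or WT3 (0.0653). Tlr7, which encodes a receptor for single-stranded RNA in endosomes (chrX:167304929-167330558), had 27, 20 and 10 counts in KO and 0 in each WT library. Its mean of 0.305 CPM in KO was 6.69-fold a floor of 3 counts a WT library (0.0456 CPM). This ratio makes no allowance for the spread of the few KO counts. Tlr7 was called (adjusted p = 0.0283, and 0.259 with the block), also without KO3 but not without any other 1 library (0.0512 to 0.0887). In KO CMP and GMP these 4 genes stood at 3.55 and 5.09 CPM for Rdh12, 6.09 and 16.4 for F10, 19.3 and 11.4 for Irf5, and 2.62 and 0.311 for Tlr7. No member of the marker lists of other cells given below was called beside them, and the part of other cells in these 5 genes was not tested.

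**Figure D4:**
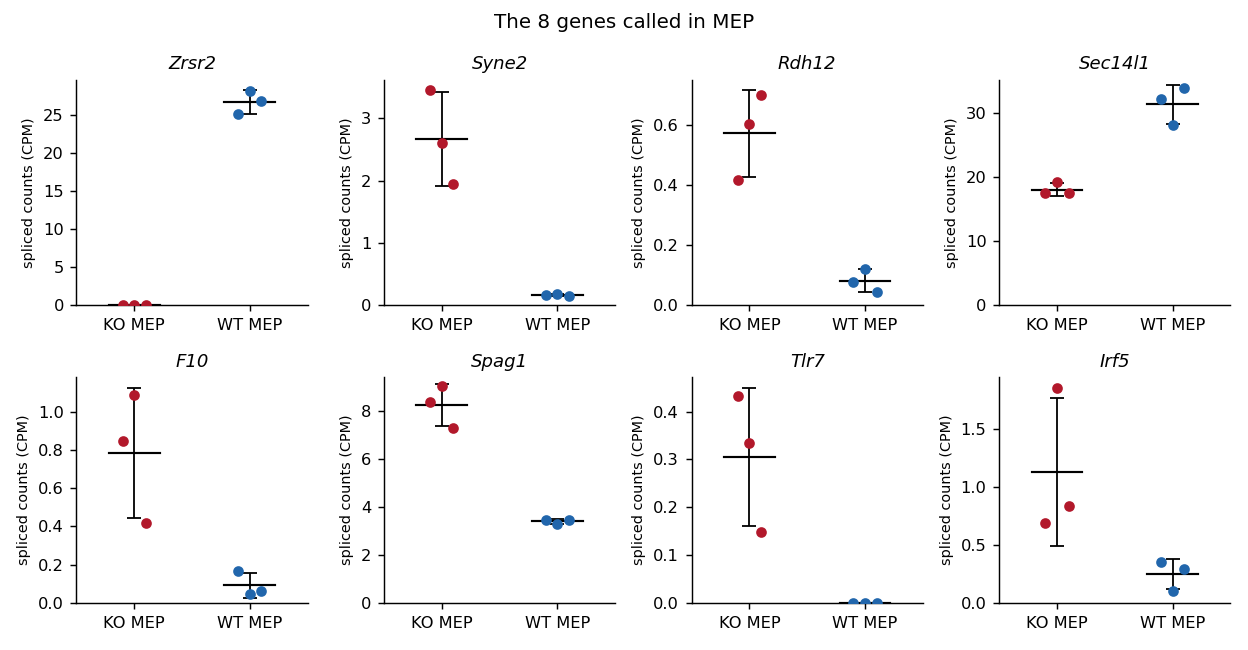
CPM of spliced counts (vertical axis, from 0) of the 8 called genes in KO and WT MEP libraries. Points are libraries, and the bar and its whiskers give the mean and SD of 3. In every panel the KO and WT points are separate, with Zrsr2 and Sec14l1 lower in KO and the other 6 higher.

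No gene of the erythroid programme passed the test between KO and WT MEP. Over all 17563 tested genes 8155 were higher and 9221 lower in KO, with a median log2 change of -0.01. Most lists on splicing, growth and stress below also held more lower than higher genes, and the RAS and MAP kinase list the reverse. Of 23 genes of heme synthesis and iron use 4 were higher and 19 lower in KO, with a median log2 change of -0.09 and none at an unadjusted p under 0.05. Alas2, the erythroid enzyme of the first step of heme synthesis, had 3.90, 3.06 and 2.55 CPM in KO, against 6.28, 3.43 and 3.39 CPM in WT (log2 change -0.48, SE 0.34). Uros, a later enzyme of the pathway, had -0.21, the mitochondrial transporter gene Abcb10 -0.19 and the ferrireductase gene Steap3 -0.18. Of 26 tested red cell genes 4 were higher and 22 lower (median -0.09), with the skeleton gene Epb41 at -0.09, the spectrin gene Sptb at -0.26 and the glucose transporter gene Slc2a1 at 0.37. Of 22 erythroid and megakaryocytic transcription factors 4 were higher and 18 lower (median -0.04), with Klf1, the main activator of globin genes, at 83.8 ± 11.01 CPM in KO and 93.7 ± 9.39 CPM in WT (SD, n = 3 each). Meis1 had 0.54 and Foxo3 -0.30, both of them transcription factor genes.

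Megakaryocyte and platelet genes were low in both genotypes, with a summed level of 70.8 to 81.5 CPM in KO and 58.2 to 96.04 CPM in WT and 1252 to 1740 CPM in WT CMP. Of the 25 tested 8 were higher and 17 lower in KO (median -0.11), 4 (16%) had an unadjusted p under 0.05, where 4.41% of all tested genes did, and none was called. Serpine2, a protease inhibitor gene, had 0.640, 0.519 and 0.611 CPM in KO, against 0.884, 1.05 and 1.46 CPM in WT, without overlap (log2 change -0.96, SE 0.28, adjusted p = 0.479). Slc6a4, the serotonin transporter gene, had 1, 0 and 0 counts in KO, against 15, 15 and 38 in WT (adjusted p = 0.912). The platelet ATP receptor gene P2rx1 had -0.88 with overlapping groups. The P-selectin gene Selp had 5 counts or fewer in every library.

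Genes of stem and early progenitor cells were 11 higher and 7 lower in KO (median 0.11), with summed levels of 521 to 642 CPM in KO and 431 to 766 CPM in WT. Cd48, a SLAM family surface protein gene, had 15.5, 16.1 and 17.8 CPM in KO, against 14.5, 11.3 and 10.8 CPM in WT (log2 change 0.41, SE 0.10, adjusted p = 0.349). Mecom, a transcription factor of stem cells, had 2.25 and Procr, a surface receptor of stem cells, 1.97, at under 1 CPM in every library. Of 27 tested cytokine receptor genes 16 were higher and 11 lower (median 0.05). The interleukin-6 receptor gene Il6ra had 2.03, 0.502 and 1.37 CPM in KO, against 0.961, 0.152 and 0.364 CPM in WT. Its groups overlapped, but each KO library was above the WT library of its number, and with the replicate block it was called (log2 change 1.45, SE 0.17, adjusted p = 0.0384). With the block in the 6 MEP libraries alone it was not called (0.999). The block within cell types also called Lrch2 and the RAS-related gene Mras, both higher, which were not tested in the 6 libraries alone. Lrch2 had 0.544, 0 and 0.149 CPM in KO and Mras 0, 0.569 and 0.491 CPM, and both were at 0 in every WT library.

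Lists on splicing, growth and stress held no called gene apart from Zrsr2, Tlr7 and Irf5. Of 25 core spliceosome genes 5 were higher and 20 lower (median -0.04), with the U2 particle gene Sf3b2 at 526 to 532 CPM in KO and 552 to 559 CPM in WT (log2 change -0.10, unadjusted p = 0.0510) and Prpf31 at -0.11. SR protein and CLK kinase genes were 5 higher and 11 lower (median -0.01, Srsf5 at 0.16), and genes of nonsense-mediated decay 7 higher and 8 lower (median -0.007, Upf1 at -0.11). DNA replication and E2F genes were 8 higher and 25 lower (median -0.04), with E2f2 at -0.34, the methylation maintenance gene Uhrf1 at -0.15 and the helicase loading gene Mcm10 at -0.09. All 9 tested heat shock genes were lower (median -0.16), with the chaperone genes Hsph1 at -0.31 and Dnajb1 at -0.23, and none had an unadjusted p under 0.05. Genes of the integrated stress and unfolded protein responses were 7 higher and 17 lower (median -0.07). Their cystine transporter gene Slc7a11 had 0.0960, 0.0335 and 0.0298 CPM in KO, against 0.290, 0.380 and 0.486 CPM in WT, without overlap (log2 change -2.85, SE 0.84, adjusted p = 0.518). The chaperone gene Hspa5 had -0.23, Nupr1 0.72, and the stress factor gene Atf3 had counts only in KO1 and KO3. Interferon genes were 8 higher and 19 lower (median -0.08). Apart from Tlr7 and Irf5, none of them had an unadjusted p under 0.05, with the guanylate-binding protein gene Gbp2 at 0.36.

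Markers of other cells overlapped between the genotypes in their summed levels. Mast cell, basophil and eosinophil genes summed to 12.6 to 29.7 CPM in KO and 11.5 to 38.4 CPM in WT, with 8 of 16 higher and 8 lower (median 0.15). Of the 16, 4 (25%) had an unadjusted p under 0.05, where 4.41% of all tested genes did. They were Prss34, Mcpt8 and Fcer1a, all higher, and the interleukin-5 receptor gene Il5ra, lower, with reads in WT3 only. Prss34, a basophil protease gene, had 1.34, 0.820 and 2.59 CPM in KO, against 0.183, 0.182 and 0 CPM in WT. Mcpt8, another basophil protease gene, had 0.368, 0.151 and 0.611 CPM in KO, against 0.107, 0.0608 and 0 CPM in WT (log2 change 2.70, SE 0.63, adjusted p = 0.295). For Fcer1a, a subunit of the high-affinity IgE receptor, no WT library had a read. The 3 higher genes had separate groups, and none was called. The eosinophil granule gene Prg2, the most abundant of the list, had 3.14, 20.9 and 11.2 CPM in KO, against 23.6, 9.36 and 6.61 CPM in WT, with overlap. Macrophage and dendritic cell genes summed to 104.0 to 121 CPM in KO and 98.7 to 104.05 CPM in WT, so the sums barely overlapped. Of the 18 tested 12 were higher (median 0.12), and none was called. An unadjusted p under 0.05 was held by 2 of them (11.1%), where 4.41% of all tested genes passed. The lysosomal gene Cd68, of the smallest p, had -0.70, against the direction of most of the list. Granulocyte-monocyte genes summed to 859 to 935 CPM in KO and 814 to 974 CPM in WT, with 10 of 17 higher (median 0.09). Ms4a3, of the smallest p, had -0.88, against the direction of most of the list. Neutrophil (6 of 15 higher), lymphoid (9 of 17) and endothelial and stromal genes (7 of 9) held none called. The 4 tested sex-linked genes were all higher in KO (median 0.17), led by Eif2s3y, a Y-linked translation factor gene, at 106, 103 and 91.6 CPM in KO, against 70.2, 75.6 and 61.9 CPM in WT (log2 change 0.50, SE 0.14, adjusted p = 0.478).

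Use of single splice junctions relative to the rest of their gene was called for 2 of 12202 genes (0.0164%, edgeR diffSpliceDGE with Simes adjustment), and for 1 with the replicate block. Prr5, which encodes a component of mTOR complex 2, used its last intron, intron 8 (chr15:84701500-84702717), less in KO. It was spliced by 14, 10 and 11 reads in KO, against 64, 43 and 40 in WT, without overlap. Introns 3 to 6 had 16 to 45 reads in KO and 13 to 46 in WT. Intron 7 had 11, 15 and 18 in KO, against 12, 25 and 22 in WT. Intron 2 had 2, 11 and 25 in KO, against 4, 13 and 11 in WT. Intron 8 thus stood near intron 7 in KO, and held the most reads of these introns in each WT library. The relative log2 change of intron 8 was -1.87 (gene adjusted p = 0.01001, and 0.0201 with the block). The call held in 5 of 10 alternatives. It was lost without KO2 (0.0998), KO3 (0.370) or WT1 (0.386), in the 6 MEP libraries alone (1.0) and with limma diffSplice (1). In CMP the same junction had 125 to 151 reads in KO and 184 to 326 in WT, not scaled to depth. The CMP libraries held 44083233 to 50515089 spliced counts in KO and 62699289 to 71576589 in WT. In GMP the junction had 116 to 202 reads in KO and 108 to 158 in WT, with overlap. The GMP libraries held 59561617 to 84832431 spliced counts in KO and 49689189 to 56821101 in WT.

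Rps25, a gene of the small ribosomal subunit, had a junction that skips its exon 2 (chr9:44407758-44408685, 928 bases) with 271, 248 and 14 reads in KO1, KO2 and KO3, against 29, 1 and 8 in WT. It was high in KO1 and KO2 only, and KO3 lay within the WT range (relative log2 change 3.84, gene adjusted p = 0.000995, and 0.0524 with the block). The call held in 3 of 10 alternatives and was lost without KO1 (0.0669), KO2 (0.0717), WT2 (0.111) or WT3 (0.0801), in the 6 MEP libraries alone (0.927) and with limma diffSplice (1). The usual junctions of the gene carried 25615 to 38929 reads in every MEP library. The CMP and GMP libraries had 0 to 26 reads across the skipping junction, those of KO1 and KO2 included.

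Genes beside Rps25 on chromosome 9, examined after this pattern was seen, stood out in the same pair of libraries. Of the 14 genes with a listed intron within 75 kb, Vps11, a HOPS and CORVET subunit gene, had 126, 122 and 62.8 CPM in KO1, KO2 and KO3, against 68.9, 61.5 and 59.9 CPM in WT. The glucose-6-phosphate transporter gene Slc37a4 had 55.9, 52.97 and 22.4 CPM in KO, against 24.8, 20.6 and 21.8 CPM in WT, and Ccdc84 followed the same order. The chaperone gene Hyou1 had 296, 307 and 208 CPM in KO, against 196, 219 and 228 CPM in WT. KO3 lay within the WT range for all of these. Dpagt1 at one side of the stretch had no such pattern, at 45.7 to 49.9 CPM in KO, against 44.4 to 46.3 CPM in WT. The CMP libraries of the KO mice had 63.4 to 68.5 CPM of Vps11 and 14.7 to 16.4 CPM of Ccdc84, and the GMP libraries 62.6 to 63.9 and 12.99 to 16.1 CPM. The cause of this pattern was not tested, and the call of Rps25 and the change of Ccdc84 rest on KO1 and KO2.

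**Figure D5:**
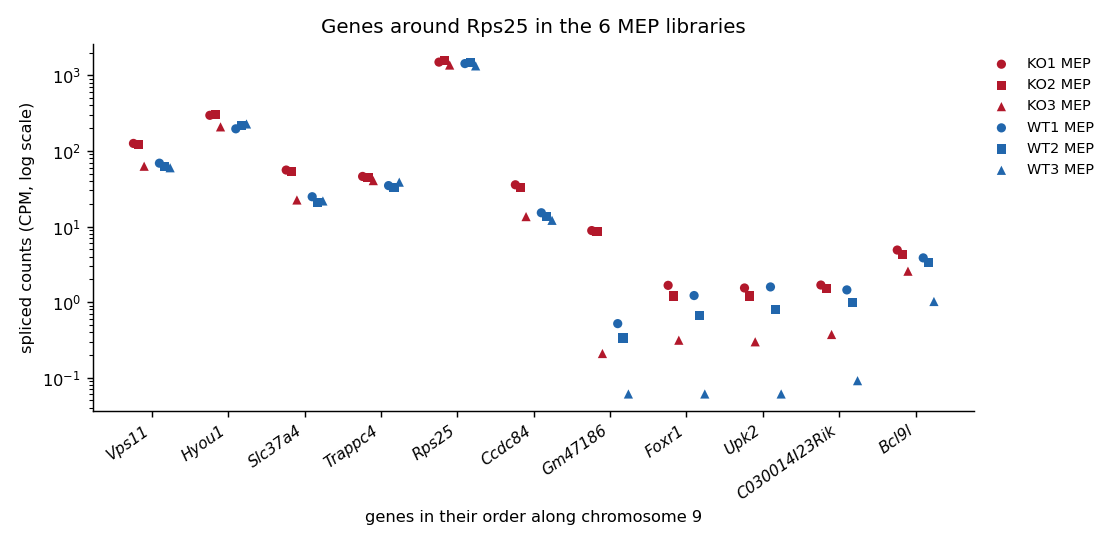
CPM of spliced counts (vertical axis, log scale) of the 11 listed genes from Vps11 to Bcl9l around Rps25 in their order along chromosome 9 (horizontal axis), 1 point for each KO and WT MEP library. KO1 and KO2 stand above the other 4 libraries from Vps11 to Gm47186, as for Slc37a4 at 55.9 and 52.97 CPM against 22.4 CPM in KO3 and 20.6 to 24.8 CPM in WT. For Rps25 the margin is small, at 1498 and 1567 CPM against 1371 CPM in KO3 and 1336 to 1483 CPM in WT.

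Whether the KO effect in MEP differed from that in CMP or GMP was tested as an interaction over the 18 progenitor libraries. Of 17563 genes 2 passed against CMP and 2 against GMP (0.0114% each). These were Syne2, with a difference of 3.89 against CMP and 3.90 against GMP (SE 0.38 each, adjusted p = 0.000398 for both), and Rdh12, with 2.83 and 2.88 (SE 0.41 each, adjusted p = 0.0367 and 0.0292). For a block by mouse, libraries of 1 genotype and number were taken as 1 mouse, which the labels do not state. With the mouse as a block Syne2 stayed called (adjusted p = 0.00532 and 0.00624) and Rdh12 did not (0.246 and 0.166). The differences for Sec14l1 were -0.02 and -0.04 (SE 0.15 each) and those for Spag1 0.02 and -0.37 (SE 0.27 each), none of them called. Of 62446 introns 1 passed against CMP (0.0016%) and 0 against GMP (0%) by edgeR, where 3269 and 2231 had an unadjusted p under 0.05. The difference for Pola2 intron 3 was 1.24 (SE 0.81) against CMP and -0.02 (SE 0.81) against GMP. The 1 intron was intron 14 of Washc5, a subunit gene of the WASH complex of endosomes (chr15:59349404-59350131, 728 bases), named after its values were seen. It had 0 exon-intron reads in every KO MEP library, against 15, 8 and 2 in WT MEP, all at a single end of the intron in each WT library, and 0% in WT CMP against 2.42 ± 1.68% in KO CMP (SD, n = 3). A count of 3 reads would have allowed 0.483% to 0.648% in the KO MEP libraries.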

How the data were processed

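The members and the gene lists were chosen with earlier results of these data known. Each library's file lists introns with whole-number counts of reads, per the file headers at either end of the intron and spliced across it, and the covered fraction of the intron as deposited by the authors. Coordinates are mm10 (per the submitters' processing notes), and no aligner or counter was named there. No strand was recorded, so reads of genes that overlap on either strand cannot be separated. A retention percent per intron was computed here from the deposited counts. It was compared with the percent in the authors' files at a tolerance of 0.001. No intron failed to match in any MEP, CMP or GMP library. All 219945 introns matched GENCODE M21.

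Spliced counts were summed per gene, and CPM are these sums per 1e6 spliced counts. Genes, introns (exon-intron against spliced reads) and junctions (diffSpliceDGE) were fitted with edgeR 4.0.16 (R 4.3.3) over the 18 progenitor libraries of CMP, GMP and MEP, filtered on low counts, with p adjusted by Benjamini-Hochberg over all features and called under 0.05. The alternatives used DESeq2 1.42.0 and limma 3.58.1, and tables were made with Python 3.11.15. The fits were tested on simulated data. Intervals were not needed, and floors take 3 counts and cover counting error only.

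Same-numbered KO and WT MEP libraries deviated together over 10133 genes (correlations 0.320, 0.253 and 0.271), so the number was taken to pair them as a replicate block. All other pairs were negative, which the centring of each gene within its group largely forces. Named were all called genes, up to 4 members of each list and up to 15 U12-type introns of smallest p, and called introns and junctions. Predicted genes were not described.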

Additional observations from a re-analysis of the deposited data

Results flagged for a closer look

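The KO effect on Syne2 differed between MEP and both other progenitor types. The difference of its log2 change was 3.89 for MEP minus CMP and 3.90 for MEP minus GMP (edgeR interaction, adjusted p = 0.000398 for both). Its log2 change was 3.95 in MEP, 0.06 in CMP and 0.05 in GMP. Its level in KO MEP, 2.67 ± 0.755 CPM, was above that in WT MEP, 0.167 ± 0.0152 CPM (SD, n = 3 each).

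Rdh12 differed in the same way, by 2.83 for MEP minus CMP and 2.88 for MEP minus GMP (edgeR interaction, adjusted p = 0.0367 and 0.0292). Its counts in MEP were 26, 36 and 47 in KO and 5, 8 and 3 in WT, and with the mouse as a block the difference did not pass (adjusted p = 0.246 and 0.166).

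Intron 14 of Washc5 differed by -8.20 for MEP minus CMP in the limma fit of log2 ratios. The edgeR interaction had an adjusted p of 0.0325, and of 0.457 with the mouse as a block. The KO MEP and WT CMP libraries held no exon-intron read there, so this fitted size depends on the prior count and is no bound. It was called without WT3 and in none of the other 5 fits that leave out 1 MEP library.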

How the results depend on the processing

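For genes, the count of 8 became 1 with the 6 MEP libraries alone, 79 with DESeq2 (50 higher and 29 lower, all 8 among them), 2 with limma-voom, 2 with the median intron count per gene and 13 without a filter on low counts. It was 7 to 16 without 1 library, with 15 without KO3 and 16 without WT1. For introns, the count of 3 (all higher) became 12 with limma on log2 ratios (6 higher and 6 lower, none of them among the 3), and was 1 to 6 without 1 library, with 1 without KO3 and 6 without WT2 (3 higher and 3 lower). For junction use, the count of 2 became 0 with the 6 MEP libraries alone, 0 with limma diffSplice and 0 to 2 without 1 library, with 0 without KO2 and 1 without KO3, WT1, WT2 or WT3.

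With the replicate block that pairs libraries of 1 number, the genes called were 7 within cell types and 1, Zrsr2, in the 6 MEP libraries, the introns 5 and the genes of junction use 1. With the mouse as a block the differences of the KO effect numbered 1 gene against CMP, 1 gene against GMP and 0 introns against CMP. Beyond the calls given beside their results, the block within cell types changed no other call among the named genes and introns.

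Without 1 library, the genes that differed between MEP and CMP numbered 1 to 4 (4 without KO1 or KO3, 1 without KO2, WT1 or WT3), those between MEP and GMP 1 to 6 (5 without KO1, 6 without KO3, 1 without KO2 or WT3), and the introns between MEP and CMP 0 to 1 (1 without WT3, 0 without any other). The median change of the U12-type introns, 0.29, was 0.57 with the exact 5′ site and 0.19 to 0.43 without 1 library, lowest without WT3 and highest without KO2, and it was positive in every alternative run. Of 749 values of the 51 named genes under the alternatives 704 kept direction and side of the threshold, 40 lost it, 5 gained it and 0 turned round. For the 25 named introns these were 325, 14, 1 and 0 of 340. Only genes and introns called above could lose it, and most of the kept values belong to others. Zrsr2 stayed called in 15 of 15 alternatives, Syne2 in 11 of 14, Rdh12 in 12 of 15, and F10 and Sec14l1 in 11 of 15 each. Irf5 did so in 7 of 15, Spag1 in 5 of 15 and Tlr7 in 5 of 13. The introns of Pola2, Mcts1 and Psma1 did so in 13, 10 and 5 of 14. The cause of these dependences was not tested.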

Other observations

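Lists of housekeeping and growth genes held no called gene in KO MEP. Of 28 cytosolic ribosomal protein genes 7 were higher and 21 lower (median log2 change -0.03), and of 23 oxidative phosphorylation genes 5 were higher and 18 lower (median -0.04). Mitosis genes were 7 higher and 15 lower (median -0.02), p53 targets 10 higher and 11 lower (median -0.008), and genes of the RAS and MAP kinase pathway 17 higher and 6 lower (median 0.03). The median over all 17563 genes was -0.01. A list of 9 genes that was chosen on these samples holds the 8 called genes and gives no further evidence on them.

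Beyond Ccdc84 on chromosome 9, the libraries numbered 3 of both genotypes were the lowest of their group. Foxr1 had 1.66, 1.205 and 0.313 CPM in KO1, KO2 and KO3, against 1.22, 0.669 and 0.0607 CPM in WT1, WT2 and WT3. Upk2, a urothelial membrane protein gene, had 1.54, 1.205 and 0.298 CPM in KO, against 1.59, 0.790 and 0.0607 CPM in WT. Bcl9l, a gene of Wnt signalling, had 4.88, 4.23 and 2.56 CPM in KO, against 3.84, 3.31 and 1.02 CPM in WT. KO and WT overlapped for all 3, which were named after their values were seen.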
